A study of Mus musculus with 8 samples.

Results

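The subunit genes of the glutamate and GABA receptors were followed in the whole-brain RNA of 8 newborn mice. The genes were taken from the read count table of the alignment to the C57BL/6J genome as the entries whose Ensembl identifiers carry the listed symbols, and 39 of the 49585 genes of the table were members. They fall into 4 AMPA, 7 NMDA, 5 kainate, 1 delta, 7 metabotropic glutamate, 13 GABA-A and 2 GABA-B subunit genes, and subunit genes outside this list were not analysed here. All brains came from female B × C F1 pups (C57BL/6J mother, CAST/EiJ father) at postnatal day 1. The dams drank water with 0 ppm CdCl2 (n = 4 pups) or 50 ppm CdCl2 (n = 4 pups) before and throughout pregnancy, and each pup was born in a different litter. Both groups therefore share the hybrid genotype, the sex and the age, and differ in the maternal Cd dose. RNA was taken from a portion of the pulverised brain, so each value is an average over all cells of that portion.

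Glutamate is the main excitatory transmitter of the brain, and GABA is the main inhibitory transmitter of the adult forebrain. AMPA, NMDA, kainate and GABA-A receptors are ion channels assembled from several subunits, whereas metabotropic glutamate and GABA-B receptors act through G proteins. The subunit mix changes around birth in rodents. *Grin2b* prevails among the NMDA receptor genes of the fetal forebrain and *Grin2a* is expressed more strongly as the brain matures, while GABA-A receptor currents turn from depolarising to hyperpolarising as the chloride exporter *Slc12a5* takes over from the importer *Slc12a2*.

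The libraries held 22916434 to 30708087 reads counted on genes. They are numbered here as replicates by the order of the samples within each dose, since the labels give no replicate numbers. Levels are given as CPM, the counts of a gene per 1000000 counts of its library, with library sizes scaled by TMM factors, and levels of different genes are compared only after division by the kilobases of annotated exon (CPM per kb). A count of 0 allows up to 3 reads, or 0.0977 to 0.131 CPM in these libraries, and this limit covers counting error only. Of 6 neuron markers, 5 were counted in each brain, led by *Map2*, and their sum lay between 3874 and 4367 CPM. *Tubb3* was listed at 0 in all 8 libraries, and the counts do not tell whether its RNA was absent or its reads were not counted.

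Before the doses are compared, 2 control libraries with little hindbrain and spinal cord marker RNA are described. The summed level of 12 hindbrain and spinal cord markers was 0.341 CPM in 0 ppm replicate 1 and 3.35 CPM in 0 ppm replicate 2, against 45.2 and 54.7 CPM in 0 ppm replicates 3 and 4. In 50 ppm replicates 1 to 4 the sum was 176, 76.7, 49.0 and 71.4 CPM. The most abundant of these markers was *Slc6a5*, the glycine transporter of inhibitory neurons in the brainstem and spinal cord, with 0.239 and 2.38 CPM in the first 2 control libraries and 21.0 to 56.1 CPM in the other 6. *Hoxa3* and *Hoxa4* were listed at 0 throughout, which, as for *Tubb3*, cannot be read as absence of their RNA. The sum of 9 forebrain markers ran the other way, with 1184 and 1109 CPM in 0 ppm replicates 1 and 2 and 754 to 953 CPM in the other 6 libraries. The 2 libraries were not alike in each region, since the sum of 4 cerebellum markers was 55.1 CPM in 0 ppm replicate 1, the lowest of the 8 libraries, and 94.4 CPM in 0 ppm replicate 2, the highest, with 73.6 to 91.3 CPM in the other 6. Values are also given without these 2 libraries, a choice made after the data had been seen, which leaves 2 control brains.

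**Figure D1:**
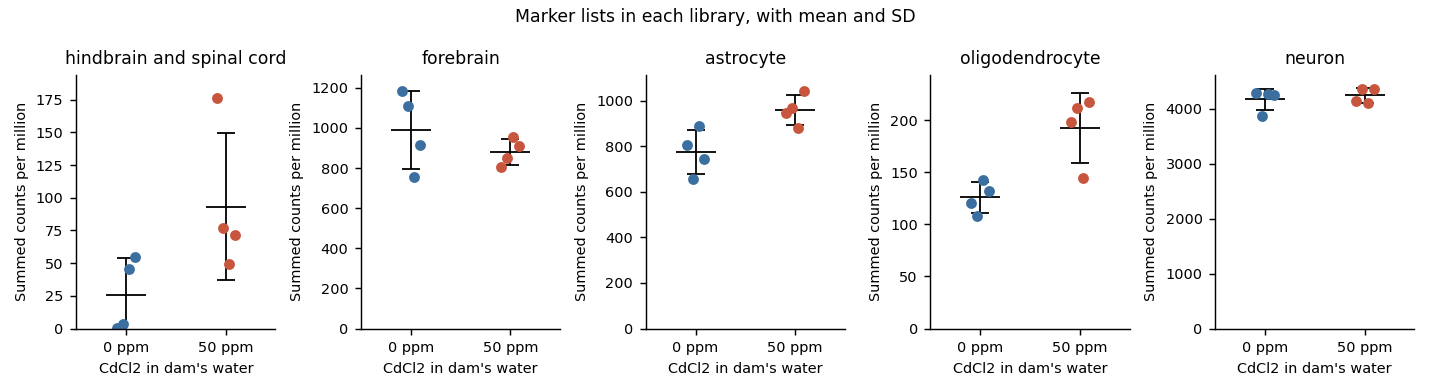
Summed CPM of 5 marker lists (y axis, from 0) in each library by maternal dose (x axis). Points are libraries, long ticks are group means and bars are SD (n = 4). The hindbrain and spinal cord sum is near 0 in 2 control libraries, the oligodendrocyte sum lies higher in the 4 exposed libraries than in the 4 control libraries, and the astrocyte sums of the groups overlap between 880.3 and 887 CPM.

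No receptor subunit gene passed the test between doses. All 39 members passed the filter on low counts, and 0 of them had an adjusted p under 0.05 by the quasi-likelihood method of edgeR, adjusted after Benjamini and Hochberg over 23113 genes, of which 4 (0.0173%) were called. At an unadjusted p under 0.05, 2 members were higher at 50 ppm (*Grin2a* and *Grm3*) and 0 were lower, beside 2.31% of all genes tested that were higher and 1.44% that were lower. DESeq2 and limma-voom likewise called 0 members and put 2 under an unadjusted p of 0.05. Without 0 ppm replicate 2, *Grin2a* alone was under it. *Grin2a* was the 1 member whose exposed libraries all lay above the control libraries, a pattern found in 1.19% of all genes, and 0 members had all exposed libraries below, a pattern found in 0.904%. With counts this small, nothing sets the list apart from all genes. In bulk tissue a lower number of cells of a type and less RNA per cell cannot be told apart, and the same holds for higher values.

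The differences were small for most of the list. The median log2 fold change (50 ppm over 0 ppm) was 0.05 over the 39 members and 0.00 over all genes tested, with 26 members above 0 and 13 below. Of the 35 members with a mean of at least 1 CPM, 33 had a 95% interval that stayed within a 1.5-fold difference in both directions (0.58 on the log2 scale). The exceptions were *Gabrd* and *Gabre*, both under 4 CPM in all libraries. The median absolute log2 fold change of the 35 was 0.0691, against 0.0635 for the 14602 genes at that level. Without 0 ppm replicates 1 and 2 the median over the 39 moved to -0.05, with 15 members above 0 and 24 below. Without 0 ppm replicate 2 alone it was -0.03 (14 above, 25 below), and without 50 ppm replicate 4 it was 0.00 (19 and 20). Its sign therefore depended on single libraries.

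**Figure D2:**
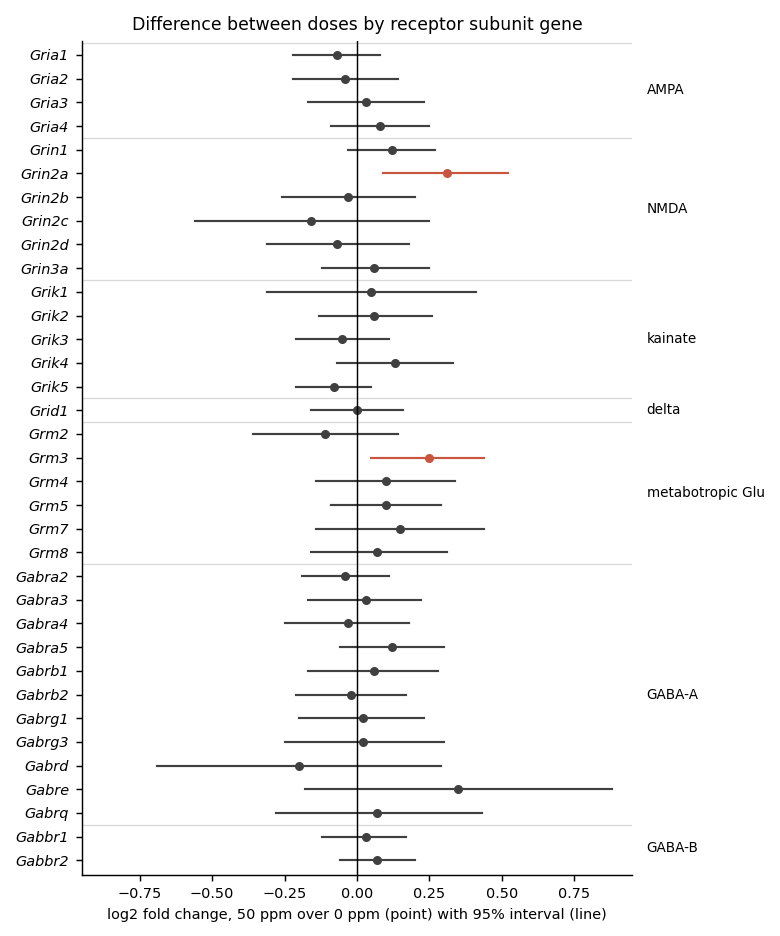
Log2 fold change at 50 ppm over 0 ppm (x axis, points) with its 95% interval from edgeR (lines) for the 35 receptor subunit genes with a mean of at least 1 CPM, by class. *Grin2a* (0.31) and *Grm3* (0.25), drawn in red, are the 2 genes whose interval leaves out 0.

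AMPA receptors carry most fast excitatory transmission. *Gria1* (chromosome 11, 57011387 to 57330244, GRCm38) had the highest level of the class at 0 ppm, 48.0 ± 3.81 CPM per kb (SD, n = 4), and made up 44.0% of the summed level per kb of the 4 genes. It had 310.4, 264, 278 and 309 CPM in 0 ppm replicates 1 to 4 and 261, 267, 279 and 298 CPM in 50 ppm replicates 1 to 4. The groups overlapped, and the log2 fold change was -0.07 with a standard error (SE) of 0.07. *Gria4* (27.4 CPM per kb) and *Gria2* (25.3 CPM per kb) followed with levels that did not differ beyond their SDs of 3.15 and 3.19, and *Gria3* was lowest at 8.51 CPM per kb. With the longest transcript as the length, *Gria1* (52.3 CPM per kb) still led and *Gria2* (37.9) came next. *Gria2* encodes the subunit that makes AMPA receptors impermeable to calcium. With 326 to 433 CPM at 0 ppm, against 365 to 423 CPM at 50 ppm, its share of the class was 23.1 ± 1.24% and 22.8 ± 2.01% (SD, n = 4). The log2 fold changes of the 4 genes lay between -0.07 and 0.08.

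Windows of the 250 bases before the gene start were available from RefSeq (GRCm38.p6) for 29 of the 39 members. The windows of 3 of them are printed: *Gria2* for a rare motif match, and, further down, *Grm3* and *Gabbr1* for their values. The *Gria2* window (chr3:80802836-80803085, minus strand) holds, in capitals, the letters GGACAGCGC read on the opposite strand. They are the right-hand part of the RE1 element, known as the site of the repressor REST, which silences neuronal genes outside neurons.
*Gria2*: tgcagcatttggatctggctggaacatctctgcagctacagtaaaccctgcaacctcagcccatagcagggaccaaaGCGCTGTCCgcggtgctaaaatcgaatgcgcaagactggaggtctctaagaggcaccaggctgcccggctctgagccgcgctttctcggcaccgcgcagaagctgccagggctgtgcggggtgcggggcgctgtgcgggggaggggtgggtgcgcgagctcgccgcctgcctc
The match begins 173 bases before the start. These letters were found on either strand in 100 of 32851 promoter windows (0.304%), and among the 29 members in *Gria2* alone. They were 1 of 6 motifs reported, chosen freely and after the values had been seen, and longer forms of the element were also searched and are not reported here. A match describes letters, not binding.

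NMDA receptors need the subunit encoded by *Grin1* and take partners whose genes differed widely in level. At 0 ppm, *Grin2b* had 18.6 ± 3.52, *Grin3a* 16.3 ± 2.14 and *Grin1* 15.4 ± 1.34 CPM per kb (SD, n = 4), 3 levels that did not differ beyond their spread. *Grin2d* had 11.4 CPM per kb, *Grin2a* 1.19 and *Grin2c* 0.641. The exons of *Grin2b* add up to 24842 bases, and with the longest transcript of the GENCODE basic set as the length, *Grin1* led the class with 34.9 CPM per kb. *Grin2b* (chromosome 6, 135713233 to 136173511) had 572, 443, 361 and 476 CPM in the control libraries and 394, 424, 485 and 508 CPM in the exposed libraries. The groups overlapped widely, and the log2 fold change was -0.03 (SE 0.11, 95% interval -0.26 to 0.20).

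*Grin2a* (chromosome 16, 9567898 to 9995560), the subunit gene of mature NMDA receptors, gave the smallest p-value of the list. It had 21.4, 20.1, 20.6 and 23.0 CPM in 0 ppm replicates 1 to 4 and 23.2, 23.3, 30.4 and 28.4 CPM in 50 ppm replicates 1 to 4. The 4 exposed libraries lay above the 4 control libraries, but 2 of them by a small margin, since 23.2 and 23.3 CPM were close to the highest control value of 23.0. Means were 21.3 ± 1.30 and 26.3 ± 3.62 CPM (SD, n = 4), with 0.31 as the fitted log2 fold change (SE 0.10, 95% interval 0.09 to 0.52). The unadjusted p of edgeR was 0.00852 and its adjusted p was 0.999, so the gene did not pass over all genes tested. Without 0 ppm replicates 1 and 2 the log2 fold change was 0.27 (SE 0.13). In all 15 alternative fits it was positive, from 0.24 to 0.37, with adjusted p-values from edgeR, DESeq2 or limma between 0.648 and 1.00. The other NMDA receptor genes with at least 1 CPM had log2 fold changes from -0.16 (*Grin2c*) to 0.12 (*Grin1*). *Grin2d* had 63.5 and 60.8 CPM in 0 ppm replicates 1 and 2, 91.7 and 87.5 CPM in 0 ppm replicates 3 and 4, and 64.3 to 76.6 CPM at 50 ppm. Its log2 fold change was -0.07 with all libraries and -0.31 (SE 0.09, adjusted p = 0.533 from edgeR) without the first 2 controls. It was singled out after its values had been seen. Of the exon length of *Grin1* and *Grin2d*, 13.5% and 9.66% overlaps genes on the opposite strand, and the strand setting of the count is not stated, so their counts are uncertain.

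**Figure D3:**
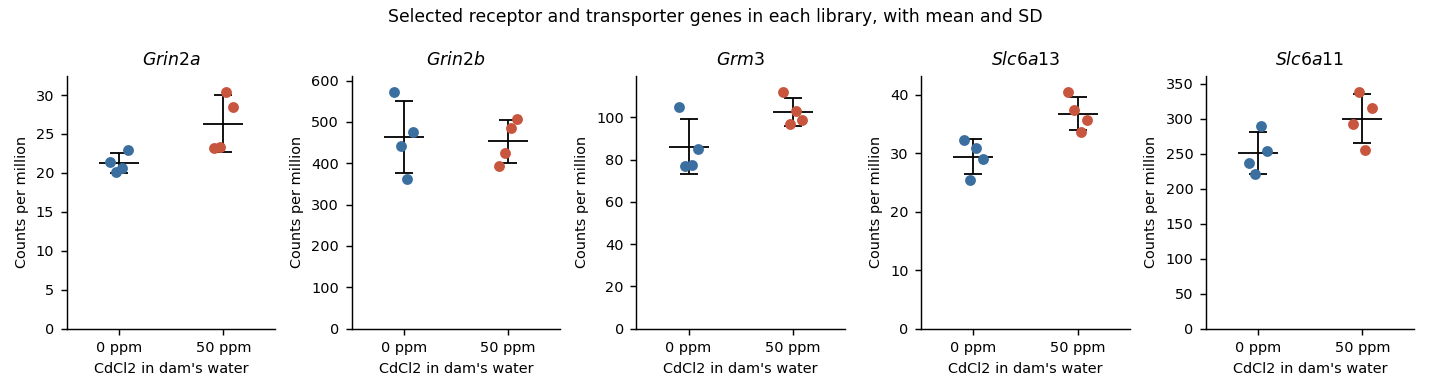
CPM (y axis, from 0) of *Grin2a*, *Grin2b*, *Grm3*, *Slc6a13* and *Slc6a11* in each library by maternal dose (x axis). Points are libraries, long ticks are means and bars are SD (n = 4). The groups are separate for *Grin2a* and *Slc6a13* and overlap for the other 3 genes.

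The balance of *Grin2b* to *Grin2a* is a measure of NMDA receptor maturation. The log2 ratio of their levels per kb was 4.27, 3.99, 3.66 and 3.90 in the control libraries and 3.62, 3.71, 3.53 and 3.69 in the exposed libraries. *Grin2b* was thus the more abundant transcript in each brain, and the lowest control ratio fell inside the exposed range. Means were 3.96 ± 0.25 and 3.64 ± 0.08 (SD, n = 4), and differed by -0.32 (p = 0.0857 in an exact permutation test, two-sided, over 70 labellings, adjusted p = 0.171 over 2 ratios), where the smallest p possible is 0.0286. Without 0 ppm replicates 1 and 2 the difference was -0.14, and the exact permutation test of 2 against 4 brains cannot go below p = 0.0667. The largest ratio, 4.27, belonged to 0 ppm replicate 1, which is among the libraries with little hindbrain marker RNA and much forebrain marker RNA, and the part of those regions in the ratio was not tested.

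The log2 ratio of *Slc12a5* to *Slc12a2* was 2.18, 1.82, 2.61 and 2.56 at 0 ppm and 2.46, 2.59, 2.19 and 2.09 at 50 ppm. The exposed libraries lay within the control range. The difference was 0.04 (p = 0.914 in the same exact permutation test, adjusted p = 0.914 over 2 ratios), from means of 2.29 ± 0.37 and 2.33 ± 0.23 (SD, n = 4). It turned to -0.25 without 0 ppm replicates 1 and 2, to -0.12 without 0 ppm replicate 2 and to -0.04 without 50 ppm replicate 2, so no direction can be given. *Slc12a5* had 215 and 222 CPM in those 2 controls, 311 and 299.9 CPM in the other controls and 252 to 279 CPM at 50 ppm. *Slc12a2* had 69.9 to 92.2 CPM at 0 ppm, against 68.2 to 89.7 CPM at 50 ppm.

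**Figure D4:**
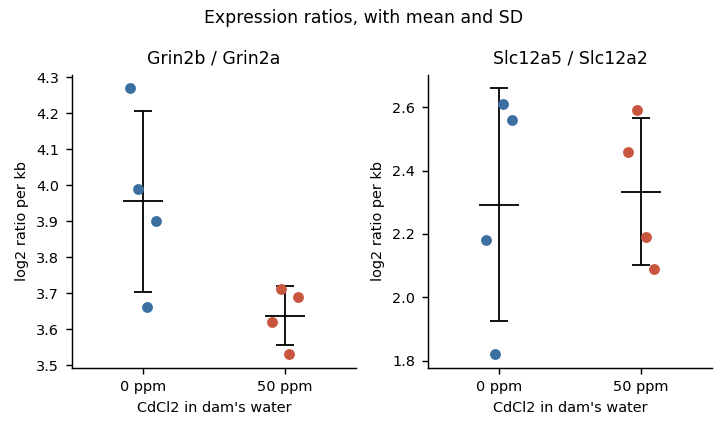
Log2 ratio per kb (y axes, not from 0) of *Grin2b* to *Grin2a* and of *Slc12a5* to *Slc12a2* in each library by maternal dose (x axis). Points are libraries, long ticks are means and bars are SD (n = 4). Groups overlap in both panels, at 3.66 to 3.71 for *Grin2b* to *Grin2a*.

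Kainate receptors modulate both excitatory and inhibitory synapses. *Grik5*, which encodes a high-affinity subunit that needs a partner to form channels, made up 51.0 ± 1.25% of the class level per kb at 0 ppm and 49.4 ± 1.30% at 50 ppm (SD, n = 4). It had 214, 216, 228 and 230.2 CPM in the control libraries and 208, 221, 209.6 and 202 CPM in the exposed libraries, with a log2 fold change of -0.08 (SE 0.06). The groups overlapped in a narrow range. *Grik3* had 21.5, *Grik2* 8.19, *Grik1* 6.90 and *Grik4* 4.73 CPM per kb at 0 ppm. *Grik1* was the most variable of them, with 34.8 and 29.4 CPM in 0 ppm replicates 1 and 2, 65.9 and 55.4 CPM in 0 ppm replicates 3 and 4, and 47.0 to 49.2 CPM in the exposed libraries. Its log2 fold change was 0.05 (SE 0.17) over all libraries and -0.34 (SE 0.10, adjusted p = 0.470 from edgeR) without those 2 controls, so that its direction rested on them. *Grik1* was singled out after its values had been seen. *Grid1*, an orphan member of the family that takes part in synapse formation, had 74.7, 70.1, 77.5 and 81.4 CPM at 0 ppm, against 69.4, 73.7, 76.2 and 84.7 CPM at 50 ppm. The 2 ranges were nearly alike, with a log2 fold change of 0.00 (SE 0.08).

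**Figure D5:**
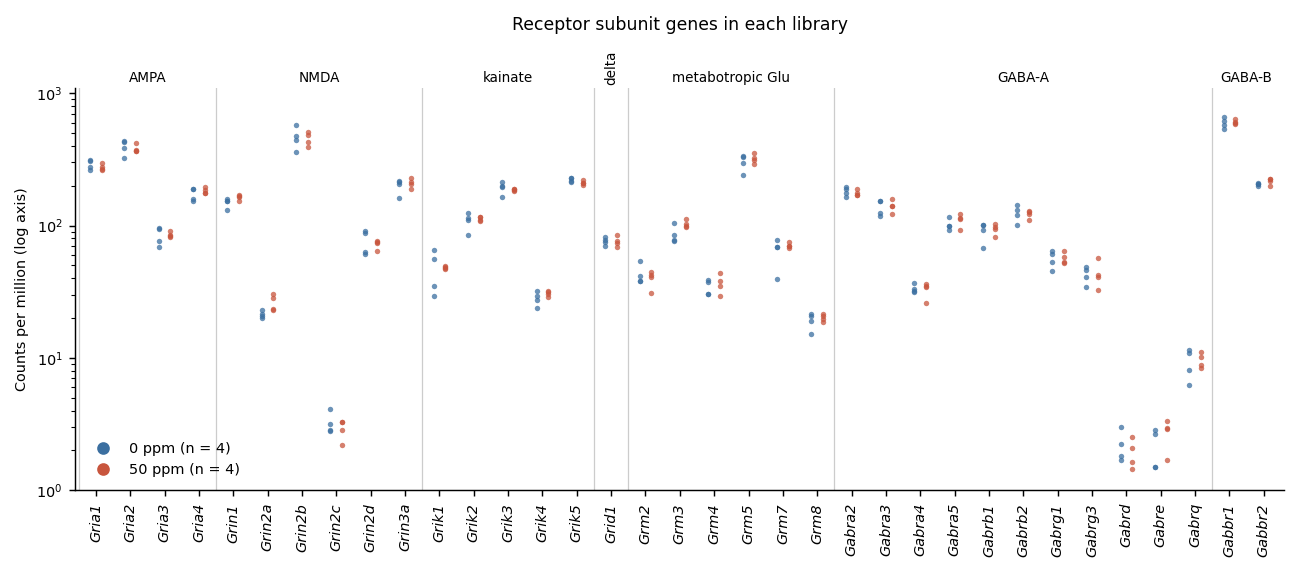
CPM (y axis, log scale) of the 35 receptor subunit genes with a mean of at least 1 CPM (x axis, by class) in the 4 control (blue) and 4 exposed (red) libraries, 1 point per library. Blue and red points overlap for each gene but *Grin2a*.

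Among the metabotropic glutamate receptors, *Grm5* belongs to the group that raises intracellular calcium, whereas *Grm2*, *Grm3*, *Grm4*, *Grm6*, *Grm7* and *Grm8* act by lowering cyclic AMP. *Grm5* had 336, 242, 296 and 328 CPM at 0 ppm, against 315, 326, 292 and 353 CPM at 50 ppm, a log2 fold change of 0.10 (SE 0.09). Its groups overlapped, and 0 ppm replicate 2 was the lowest library. The log2 fold change was 0.01 without that library, 0.05 without 50 ppm replicate 4, 0.16 without 0 ppm replicate 1, 0.15 without 50 ppm replicate 3 and 0.04 without 0 ppm replicates 1 and 2. At 0 ppm its 29.3 ± 4.18 CPM per kb differed by less than the SD from the 28.3 ± 4.37 CPM per kb of *Grm3* (SD, n = 4), but with the longest transcript as the length the levels were 37.4 and 28.3 CPM per kb. *Grm7* (10.8), *Grm2* (8.73), *Grm4* (5.75) and *Grm8* (1.93 CPM per kb) were lower, with log2 fold changes from -0.11 (*Grm2*) to 0.15 (*Grm7*). Of the exon length of *Grm2*, 9.6% overlaps genes on the opposite strand, so its count is uncertain as well.

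*Grm3* (chromosome 5, 9485541 to 9725170) is expressed in astrocytes as well as in neurons. It had 105, 77.0, 77.5 and 84.9 CPM in 0 ppm replicates 1 to 4 and 112, 96.9, 103 and 98.5 CPM in 50 ppm replicates 1 to 4. The exposed libraries lay above 3 of the control libraries, and 0 ppm replicate 1 was inside their range. Means were 86.2 ± 13.3 and 102 ± 6.64 CPM (SD, n = 4), with 0.25 as the fitted log2 fold change (SE 0.09, 95% interval 0.05 to 0.44) with an unadjusted p of 0.0149 and an adjusted p of 0.999 from edgeR. It was positive in all 15 alternative fits, from 0.20 to 0.36, and had an unadjusted p under 0.05 in 13 of them, the exceptions being the fits without 0 ppm replicate 2 (0.20) and without 50 ppm replicate 1 (0.21). Without 0 ppm replicates 1 and 2 it was 0.33 (SE 0.09, adjusted p = 0.405 from edgeR), and over the alternatives the adjusted p ran from 0.405 to 1.00. The 6 astrocyte markers, led by the glutamate transporter gene *Slc1a3*, summed to 803, 657, 887 and 744 CPM at 0 ppm, against 945, 967, 880.3 and 1042 CPM at 50 ppm. The sum of 3 exposed libraries lay above that of each control library, 50 ppm replicate 3 fell just under 0 ppm replicate 3, and none of the 6 genes was at 0. The part of astrocytes in the value of *Grm3* was not tested. The window before its RefSeq start (chr5:9725353-9725602, minus strand) holds GGGCGG, a GC box, in capitals at its end.
*Grm3*: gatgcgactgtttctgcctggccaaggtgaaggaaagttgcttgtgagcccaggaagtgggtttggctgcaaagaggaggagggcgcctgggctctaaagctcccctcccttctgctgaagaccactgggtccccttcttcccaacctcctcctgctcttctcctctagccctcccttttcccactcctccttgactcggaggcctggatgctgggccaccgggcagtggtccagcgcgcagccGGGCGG
GGGCGG occurs on either strand in 32.7% of all promoter windows and in those of 17 of the 29 members, so it does not set *Grm3* apart.

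GABA-A receptors are chloride channels of 5 subunits, and 13 of their genes were followed. *Gabra3*, an alpha subunit gene typical of the developing brain, and *Gabra5*, whose subunit lies mainly outside synapses, had the highest levels at 0 ppm, 35.0 ± 4.67 and 34.2 ± 3.29 CPM per kb (SD, n = 4), which did not differ beyond their spread. With the longest transcript as the length, *Gabra5* came before *Gabra3* (38.1 and 37.5 CPM per kb). *Gabra3* had 125, 118, 154 and 153 CPM at 0 ppm, against 122, 140.0, 140.4 and 158 CPM at 50 ppm. The groups overlapped, and the log2 fold change was 0.03 (SE 0.09). *Gabra2* followed with 23.7 and *Gabrb2* with 19.4 CPM per kb, and then came *Gabrg1* (7.14), *Gabrb1* (6.54), *Gabra4* (5.52), *Gabrg3* (3.55) and *Gabrq* (1.71 CPM per kb). *Gabrd*, part of tonic receptors of the adult brain, and *Gabre* were low, at 0.762 and 0.449 CPM per kb. No GABA-A member had an unadjusted p under 0.05 when all 8 libraries were used. *Gabra5* was under it without 0 ppm replicate 1 (log2 fold change 0.19) and without 50 ppm replicate 3 (0.20), *Gabre* without 50 ppm replicate 1 (0.53) and *Gabrr2*, with few counts, without 0 ppm replicate 3, at adjusted p-values from edgeR of 0.961 to 0.999. The median log2 fold change of the class was 0.03, with 9 of 13 genes above 0. It was -0.06 without 0 ppm replicates 1 and 2 (4 genes above 0), -0.04 without 0 ppm replicate 2 (5 genes) and -0.05 without 50 ppm replicate 4 (4 genes), so no direction can be given for the class.

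The positions of these genes go with no common level. *Gabrg1*, *Gabra2*, *Gabra4* and *Gabrb1* lie side by side on chromosome 5 between 70751047 and 72149037, and *Gabra2* had over 3 times the level per kb of each of the others. *Gabra4* and *Gabrb1* start head to head, with annotated ends that overlap between 71658113 and 71658308, and had 5.52 and 6.54 CPM per kb. On chromosome 7, *Gabra5* had 34.2 CPM per kb and its neighbour *Gabrg3* 3.55. On the X chromosome, *Gabra3* had 35.0 CPM per kb between *Gabre* with 0.449 and *Gabrq* with 1.71.

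The rho subunit genes *Gabrr1* and *Gabrr2*, known from the retina, and *Grm6*, known from retinal bipolar cells, were near the limit of detection, as was *Grin3b*, known from motor neurons. *Gabrr1* had 10 to 24 counts per library. *Gabrr2* had 1, 1, 8 and 1 counts at 0 ppm and 2, 6, 6 and 2 counts at 50 ppm. *Grin3b* had 3, 5, 4 and 5 counts at 0 ppm and 2, 2, 6 and 0 counts at 50 ppm. *Grm6* had at most 1 count per control library and at most 3 counts per exposed library, so no fold change is given for it. Exon overlap with the opposite strand reaches 32.1% in *Grin3b* and 11% in *Grm6*, which adds to the uncertainty of these few counts.

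GABA-B receptors are dimers of the products of *Gabbr1* and *Gabbr2*. *Gabbr1* (chromosome 17, 37045966 to 37075067) had the highest level of all 39 members at 0 ppm, 76.6 ± 6.62 CPM per kb (SD, n = 4). It had 578, 534, 655 and 612 CPM in the control libraries and 586, 634, 597 and 607 CPM in the exposed libraries. The exposed values lay within the control range, and the log2 fold change was 0.03 (SE 0.07, 95% interval -0.12 to 0.17). *Gabbr2* had 30.8 ± 0.622 CPM per kb (SD, n = 4), and its log2 fold change was 0.07 (SE 0.06). *Gabbr1* held 71.3 ± 1.45% of the summed level of both genes at 0 ppm and 70.8 ± 0.670% at 50 ppm (SD, n = 4). Its window (chr17:37045716-37045965, plus strand) is printed with the 2 matches to GGGCGG in capitals.
*Gabbr1*: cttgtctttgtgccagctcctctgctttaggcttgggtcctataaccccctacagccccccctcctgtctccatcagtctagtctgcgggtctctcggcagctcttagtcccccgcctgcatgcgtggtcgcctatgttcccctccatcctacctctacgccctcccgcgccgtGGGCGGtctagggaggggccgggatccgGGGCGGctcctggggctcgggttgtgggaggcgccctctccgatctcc
Across the 29 members, the 250 bases held from 0 (*Gabra3*) to 42 (*Grik3*) CG pairs, taking the window with the most where a gene has several, against a median of 6 over all windows. *Gabbr1* had 16. The 3 members with the lowest levels, *Grm6*, *Gabrr2* and *Grin3b*, had 4, 1 and 2, and *Gabra3*, with 0, had 35.0 CPM per kb.

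The other motifs are given by their counts. CCAAT was found in the windows of 12 members and in 33.8% of all windows, and TGACG in those of 3 members and in 17.8%. TGACGTCA (1.55% of all windows) was found in 0 members. TTCAGCACC, the left-hand part of the RE1 element, was found in *Grm2* and in 0.301% of all windows. Both strands were searched for each, and TGACGTCA contains TGACG.

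Other genes supply and clear the transmitters or anchor the receptors. Of 58 such genes, 0 had an adjusted p under 0.05 from edgeR, 2 were higher and 1 was lower at an unadjusted p under 0.05, and the median log2 fold change was 0.02. Of all genes tested, 2.31% were higher and 1.44% lower at that level. DESeq2 and limma-voom also called 0, with 4 and 3 genes at an unadjusted p under 0.05. The groups did not overlap for 2 higher and 2 lower genes, as for 1.19% and 0.904% of all genes. With 1 library left out, 1 (without 50 ppm replicate 2) to 8 (without 0 ppm replicate 1) of the 58 were higher at that unadjusted level, with 6 without 0 ppm replicate 3 and 4 without 50 ppm replicate 1, and 1 was lower each time. Over all genes, the 4 fits had 2.13%, 2.36%, 3.17% and 2.20% higher, in that order, and 1.31% to 1.91% were lower with 1 library left out. *Slc6a13*, a GABA transporter of the meninges and blood vessels, had 32.3, 25.4, 30.8 and 29.0 CPM at 0 ppm, against 40.4, 37.3, 33.6 and 35.7 CPM at 50 ppm. The exposed libraries all lay above the controls, with a log2 fold change of 0.32 (SE 0.09, adjusted p = 0.789 from edgeR). *Slc6a11*, the GABA transporter of astrocytes, had 237, 220.2, 290.1 and 254 CPM at 0 ppm, against 292, 338, 255 and 315 CPM at 50 ppm. Its groups overlapped, with a log2 fold change of 0.26 (SE 0.09, adjusted p = 0.999 from edgeR) that was 0.14 without 0 ppm replicates 1 and 2. *Cnih2*, which encodes an auxiliary AMPA receptor subunit, had a log2 fold change of -0.18 (SE 0.07), with 229.9 ± 9.06 CPM at 0 ppm and 202 ± 12.2 CPM at 50 ppm (SD, n = 4), and an adjusted p of 0.999 from edgeR. The mean of the summed astrocyte markers was 773 ± 96.8 CPM at 0 ppm and 958 ± 66.6 CPM at 50 ppm, and that of the meninges markers 550.0 ± 46.6 and 679 ± 72.7 CPM (SD, n = 4). Of the 5 meninges markers, 1 (*Ptgds*) had separate groups and the other 4 overlapped. The part of these cells in the values of *Slc6a11* and *Slc6a13* was not tested.

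By function, GABA uptake and breakdown had 2 of 5 genes higher at an unadjusted p under 0.05 (*Slc6a11* and *Slc6a13*), and the auxiliary subunits of AMPA and kainate receptors had 1 of 14 lower (*Cnih2*). None was at that level among 3 genes of vesicular glutamate transport, 3 of glutamate and co-agonist synthesis, 4 of glutamate uptake, 3 of GABA synthesis and loading, 2 of chloride transport, 17 excitatory scaffolds, 4 inhibitory scaffolds and 3 auxiliary GABA-B subunits. The further genes whose groups did not overlap were *Cacng4* and *Cacng7*, lower with log2 fold changes of -0.12 and -0.08, and *Kctd16*, higher with 0.29, with 10.4% of its exon length shared with opposite-strand genes. *Slc6a11*, *Cnih2*, *Cacng4*, *Cacng7* and *Kctd16* were named after their values had been seen.

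Without 0 ppm replicates 1 and 2, 11 of the 58 related genes had an unadjusted p under 0.05, 6 higher and 5 lower, beside 2.24% and 2.04% of all genes, and 0 had an adjusted p under 0.05 from edgeR. The higher ones were *Slc17a7* (log2 fold change 0.35), *Slc6a13* (0.30), *Neto1* (0.21), *Dlg2* (0.20), *Homer1* (0.20) and *Slc1a2* (0.19). The lower ones were the 3 genes of GABA synthesis and loading, *Gad1* (-0.25), *Gad2* (-0.23) and *Slc32a1* (-0.20), with *Slc12a5* (-0.21) and *Cnih2* (-0.18). Of the exon length of *Slc32a1*, 24.9% overlaps genes on the opposite strand, so its counts are uncertain. The groups then did not overlap for 7 higher and 7 lower genes, beside 5.28% and 5.64% of all genes. The median log2 fold change stayed at 0.02. Apart from *Slc6a13* and *Slc12a5*, these genes were named after their values had been seen, and with 2 control brains the counts describe few animals. The reason for the difference from the counts with all libraries was not tested.

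Among the marker lists of other cells and regions, the summed levels were separate between the doses for oligodendrocytes and for meninges, where 1 of 5 genes (*Ptgds*) had separate groups. The 7 oligodendrocyte markers, led by *Mbp*, summed to 120.0, 108, 143 and 132 CPM at 0 ppm, against 198, 212, 144 and 217 CPM at 50 ppm, without overlap, and *Bcas1* passed the test (log2 fold change 0.97, SE 0.15, adjusted p = 0.0375 from edgeR), with 12.6% of its exon length overlapping genes on the opposite strand. *Mbp*, *Mag* and *Cnp* had log2 fold changes of 0.49, 1.15 and 0.52 with exposed libraries above all controls, at adjusted p-values from edgeR of 0.290, 0.169 and 0.298. Among the astrocyte markers 4 of 6 were higher at an unadjusted p under 0.05, beside 2.31% of all genes, and *Gja1* (0.44) had separate groups. With 0 ppm replicates 1 and 2 left out, 3 of the 6 were higher at that level, beside 2.24% of all genes. Of 12 hindbrain and spinal cord markers, *Hoxb6*, *Hoxb7* and *Hoxb8* passed the test, with adjusted p-values from edgeR of 0.0401, 0.00299 and 4.66e-06, and their control libraries had 0 to 0.465 CPM. All 10 tested markers of this list and 6 of 7 oligodendrocyte markers were higher at an unadjusted p under 0.05, beside 2.31% of all genes. With 0 ppm replicates 1 and 2 left out, 6 of each list were higher at that level, beside 2.24% of all genes. Without 0 ppm replicates 1 and 2, *Hoxb7* (adjusted p = 0.0124 from edgeR) and *Hoxb8* (5.79e-06) passed, whereas *Hoxb6* (0.0604) and *Bcas1* (0.102) did not. The log2 fold changes of *Hoxb6* and *Bcas1* were then 3.88 and 0.73, against 4.86 and 0.97 with all libraries. Of 9 forebrain markers led by *Bcl11b*, 5 were lower at an unadjusted p under 0.05, beside 1.44% of all genes. *Dlx1* (-0.42) and *Dlx5* (-0.40) had separate groups. With 0 ppm replicates 1 and 2 left out, 4 of the 9 were lower and 2 higher at that level. Over all genes these shares were 2.04% and 2.24%. The part of these cells and regions in the receptor values was not tested.

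The remaining lists are given by their sums. The 5 meninges markers, led by *Ptgds* (log2 fold change 0.51, adjusted p = 0.300 from edgeR), summed to 499.5 to 590.5 CPM at 0 ppm, against 629 to 786 CPM at 50 ppm. The study also counts *Ptgds* among the genes linked to oligodendrocytes or myelination, so the sum does not describe meninges alone. *Ptgds* had means of 243 and 345 CPM and separate groups, whereas the groups of the other 4, *Col1a1* (0.14), *Col1a2* (0.12), *Dcn* (0.07) and *Lum* (-0.01), overlapped, and none of these 4 had an unadjusted p under 0.05. These 4 were named after their values had been seen. Microglia markers (*Csf1r* the most abundant of 5) summed to 64.8 to 76.1 and 75.7 to 91.9 CPM at 0 and 50 ppm. Of these, 3 were higher at an unadjusted p under 0.05, beside 2.31% of all genes. With 0 ppm replicates 1 and 2 left out, 2 were higher at that level, beside 2.24% of all genes. Oligodendrocyte progenitor (5 genes, *Pdgfra*), endothelium (4 genes, *Cldn5*) and cerebellum markers (4 genes, *Calb1*) had 0 genes at that level, with mean sums of 296 and 300.4, 123 and 132, and 78.2 and 85.0 CPM at 0 and 50 ppm. Choroid plexus (3 genes, *Ttr*) and blood markers (5 genes, *Hbb-bs*) also had 0, with sums that spread from 333 to 1144 and from 99.1 to 402 CPM over the 8 libraries. Retina and pineal markers (4 genes, *Tph1*) summed to 1.10 to 5.65 CPM, and 2 were lower at an unadjusted p under 0.05, beside 1.44% of all genes. Without 0 ppm replicates 1 and 2, 0 of these 4 genes were at that level. Apart from *Tubb3*, *Hoxa3* and *Hoxa4*, each marker had counts.

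Single libraries set the range of many receptor genes. Of the 35 members with a mean of at least 1 CPM, 20 had their lowest value in 0 ppm replicate 2, while 11 had their highest in 0 ppm replicate 1 and 10 in 50 ppm replicate 4. Summed over the 39 members, the level was 4144 CPM in 0 ppm replicate 2 and 4555 to 4923 CPM in the other 7 libraries. The neuron marker sum was lowest in the same library, at 3874 CPM against 4112 to 4367 CPM. Its part in the receptor values was not tested. The highest value of a member was a median of 1.42 times its lowest over the 8 libraries.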

How the data were processed

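The deposited values are unnormalized read counts on genes, made by the authors from poly(A) RNA of 8 whole newborn brains. They checked reads with FastQC, trimmed the initial bases, aligned with STAR to GRCm38 and counted with HTSeq from strand-specific libraries. The versions of these tools and the strand setting of the count are not stated. The table of the alignment to the CAST/EiJ genome was not used here, so reads of that allele enter as aligned to the C57BL/6J genome.

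A filter worded as in the study's methods, which drops genes with 0 counts in over 2/3 of the libraries, kept 23113. The study gives a lower number of genes after its quality control. Doses were compared with TMM normalization and the quasi-likelihood test of edgeR 4.0.16 (R 4.3.3), with Benjamini-Hochberg adjustment over all genes tested and a threshold of 0.05. Standard errors are the absolute log2 fold change over the square root of F, and 95% intervals use the fit's degrees of freedom. Log2 ratios per kb of exon (GENCODE M21) used an offset of 0.5 counts and an exact two-sided permutation test. The members, the 58 related genes and the 13 marker lists were chosen with earlier results of these data known. A marker was left out of the astrocyte list after the data had been seen, for a reason that did not involve its values, and the astrocyte results cover the remaining 6 genes. Members are given in each library where the unadjusted p is under 0.05, the groups do not overlap or the level per kb leads the class, as are *Grin2a* and *Grin2b*. Related genes and markers are named where they pass, where the unadjusted p is under 0.05 and the groups do not overlap, where they lead a marker list, or for *Slc12a2* and *Slc12a5*.

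Alternatives were DESeq2 1.42.0, its size factors in edgeR, library totals, no filter, at least 10 counts in 4 libraries, limma-voom (limma 3.58.1), an offset of 2 counts and each library left out. Leaving out 0 ppm replicates 1 and 2 and another gene length were added after seeing the data. The fits were also run on simulated data, whose outcome is not reported here. Within each dose, libraries differed by more than sampling noise. Total counts were 22916434 to 30708087 per library.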

Additional observations from a re-analysis of the deposited data

Results flagged for a closer look

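In 5 cases 1 library lay far from the other 3 of its dose, among 118 groups of 4 values looked at, and chance alone flags about 1 in 20 groups. *Gria2* had 423 CPM in 50 ppm replicate 1, against 365 to 374 CPM in the other exposed libraries. *Gabrr2* had 0.261 CPM in 0 ppm replicate 3, against 0.0341 to 0.0387 CPM in the other controls, which corresponds to 8 counts against 1 each. *Grm6* had 0 CPM in 0 ppm replicate 2 and 0.0327 to 0.0387 CPM, or 1 count each, in the other controls, a difference of 1 read that lies within the 3 reads a count of 0 allows. The summed neuron markers had 3874 CPM in 0 ppm replicate 2, against 4251 to 4288 CPM in the other controls. The summed choroid plexus markers had 1144 CPM in the same library, against 428 to 540.1 CPM.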

How the results depend on the processing

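The count of receptor subunit genes with an adjusted p under 0.05 was 0 in each of the 15 alternative fits. The count over all genes was 4 with edgeR, 18 with DESeq2, 52 without a filter, 2 with at least 10 counts in 4 libraries and 1 with limma-voom. It ran from 2 to 20 with 1 library left out and was 7 without 0 ppm replicates 1 and 2. It was 2 without 0 ppm replicate 1, 0 ppm replicate 2 or 50 ppm replicate 4, 8 without 50 ppm replicate 3, and 20 without 0 ppm replicate 3. The members with an unadjusted p under 0.05 numbered 1 to 3 with 1 library left out (1 without 0 ppm replicate 2) and 4 without 0 ppm replicates 1 and 2, beside 3.20% to 5.08% and 4.28% of all genes. The latter were *Grin2a* and *Grm3*, higher, and *Grin2d* and *Grik1*, lower. Members whose groups did not overlap numbered 1 to 3 with 1 library left out, with 2 without 0 ppm replicate 1 or 50 ppm replicate 2, and 3 without 0 ppm replicate 3, 50 ppm replicate 1 or 50 ppm replicate 3, where 2.24% to 2.89% of all genes were higher and 1.80% to 2.63% lower without overlap over the 8 fits. They numbered 5 without 0 ppm replicates 1 and 2, where 5.28% and 5.64% of all genes were higher and lower without overlap. Fewer libraries overlap less by construction, and the cause of the other shifts was not tested.

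The median log2 fold change of the members was -0.03 to 0.09 with 1 library left out and -0.05 without 0 ppm replicates 1 and 2. Without those 2 libraries, log2 fold changes turned to 0.11 for *Grin2b*, -0.07 for *Grid1*, -0.13 for *Gabra3* and -0.07 for *Gabbr1*, and the *Slc12a5* to *Slc12a2* difference to -0.25. With 1 library left out they ran from -0.13 to 0.09, from -0.06 to 0.05, from -0.04 to 0.09, from -0.02 to 0.08 and from -0.12 to 0.15, so each changed sign. The *Grin2b* to *Grin2a* difference stayed negative, from -0.42 to -0.21 with 1 library left out, and was -0.14 without 0 ppm replicates 1 and 2. *Gria1*, *Grik5*, *Grin2a*, *Grm3* and *Grm5* kept their sign in all 15 fits, though *Grm5* ran from 0.01 to 0.16. With an offset of 2 counts the ratio differences were -0.32 (*Grin2b* to *Grin2a*) and 0.04 (*Slc12a5* to *Slc12a2*), as with 0.5 counts. With the longest transcript as length, *Grin1* and *Gabra5* had the highest level per kb of the NMDA and GABA-A classes in place of *Grin2b* and *Gabra3*.

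No paired analysis was possible because the labels give no replicate numbers and each pup came from a different litter. Depth limits *Grin3b*, *Grm6*, *Gabrr1* and *Gabrr2*, all at or under 24 counts per library, and 4 brains a group limit the other values.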
